A study of Mus musculus with 15 samples.

Results

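The genes of the ATP-binding cassette (ABC) transporter family were followed in the mouse colon across 3 genotypes. A probe set was taken as a member where its single gene symbol began with Abc, a subfamily letter from a to g and a digit. This gave 48 members, 1 probe set for each gene, of 22142 probe sets on the array and of 19527 that carried exactly 1 symbol. They lay on 17 chromosomes.

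Whole colon tissue was taken from 15 mice at 11 weeks of age, 5 for each genotype, and the total RNA of each mouse went onto its own Clariom S mouse array. NEMO IEC-KO Ripk1 S166A/S166A animals (27, 33, 56, 94 and 95) lacked NEMO in intestinal epithelial cells and in addition were homozygous for the RIPK1 substitution S166A in every cell, and they are called S166A mice from here on. The NEMO IEC-KO mice (mice 16, 30 and 31 and, after them by number, the fourth and the fifth mouse) lacked NEMO in intestinal epithelial cells and carried no Ripk1 substitution by their label. The Nemo FL mice (mice 18, 22, 28, 29 and 55) carried the loxP-flanked Nemo allele that all 3 genotypes share and served as controls. NEMO, encoded by Ikbkg, is the regulatory subunit of the IkB kinase complex, and RIPK1 is a kinase that can trigger cell death downstream of the TNF receptor. The Cre line named in the methods is Villin-Cre, which is active in the epithelium of the intestine, so other cells of the colon kept NEMO. Values for single mice are listed below in the order of the mouse numbers just given. They are the deposited values, read as log2, and they compare mice for 1 probe set and not 1 probe set with another.

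Ikbkg lay between 5.23 and 5.43 in S166A mice and between 4.85 and 5.30 in NEMO IEC-KO mice, against 6.18 to 6.55 in Nemo FL mice, which checks the labels only where its probes lie inside the deletion, and their place was not analysed here. Mouse 55 is wild type by its title and NEMO IEC-KO by its genotype label, and it was placed by its title. Its Ikbkg value is part of the Nemo FL range, which lies above that of the NEMO IEC-KO mice. By their Y-linked genes 5 S166A, 2 NEMO IEC-KO and 1 Nemo FL mice were male, so sex and genotype overlapped in part. The NEMO IEC-KO males were mouse 31 and the fourth mouse, and the Nemo FL male was mouse 55. The arrays of mice 94 and 95 had interquartile ranges of 3.06 and 3.01, and the other arrays had 3.22 to 3.40.

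ABC proteins bind and hydrolyse ATP, and most of them use it to move a substrate across a membrane. In the gut, members in the apical membrane of absorptive cells return drugs, toxins and plant sterols to the lumen, whereas others pass bile acid and drug conjugates or lipids towards the blood. Members of the A subfamily move lipids, those of the D subfamily carry fatty acids into peroxisomes or act in lysosomes, and those of the E and F subfamilies have no membrane part and work with ribosomes. The comparisons ask which of these genes changed when NEMO was lost from the epithelium and which of them were at another level when RIPK1 could not be phosphorylated at the substituted site.

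Abcb1a and Abcb1b showed the largest differences. These drug efflux pump genes, which together encode P-glycoprotein in mice, fell 6.74-fold and 6.77-fold in NEMO IEC-KO relative to Nemo FL mice, and in S166A mice they were 5.83-fold and 5.33-fold higher than in NEMO IEC-KO mice. The lipid transporter genes Abca8a and Abca8b showed the next largest falls. In all, 15 members (31.2%) passed an adjusted p under 0.05 from limma in NEMO IEC-KO relative to Nemo FL mice, where 25.4% of all probe sets did. Of these 3 were higher (6.25% of members, against 11.6% of all probe sets) and 12 were lower (25%, against 13.8%). Between S166A and NEMO IEC-KO mice 12 members passed (25%, against 19.2% of all probe sets), 10 of them higher (20.8%, against 9.33%) and 2 lower (4.17%, against 9.90%). Between S166A and Nemo FL mice 0 members passed limma, where 0.0542% of all probe sets did. At an unadjusted p under 0.05 that last comparison had 7 members (14.6%, against 10.6% of all probe sets), 4 higher and 3 lower. The alternatives run there that kept adjusted p-values also gave 0, except that sex as a term, chosen after seeing the data, gave 1, Abcg8. As mouse 55 was the only male among the Nemo FL mice, that fit sets the S166A mice against it alone. An unadjusted p under 0.05 with a fold of at least 1.5 gave 2, Abcc9 and Abca8a. The share of members called thus lay close to that of all probe sets in every comparison, with more of the calls on the lower side in NEMO IEC-KO mice. The median log2 change over the 48 members was −0.12 in NEMO IEC-KO relative to Nemo FL mice, beside 0.01 over all probe sets. It was 0.07 beside 0.02 in S166A against NEMO IEC-KO mice, and −0.03 beside 0.01 in S166A against Nemo FL mice. Each genotype enters 2 of these comparisons, which therefore share mice and are not independent of each other.

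**Figure D1:**
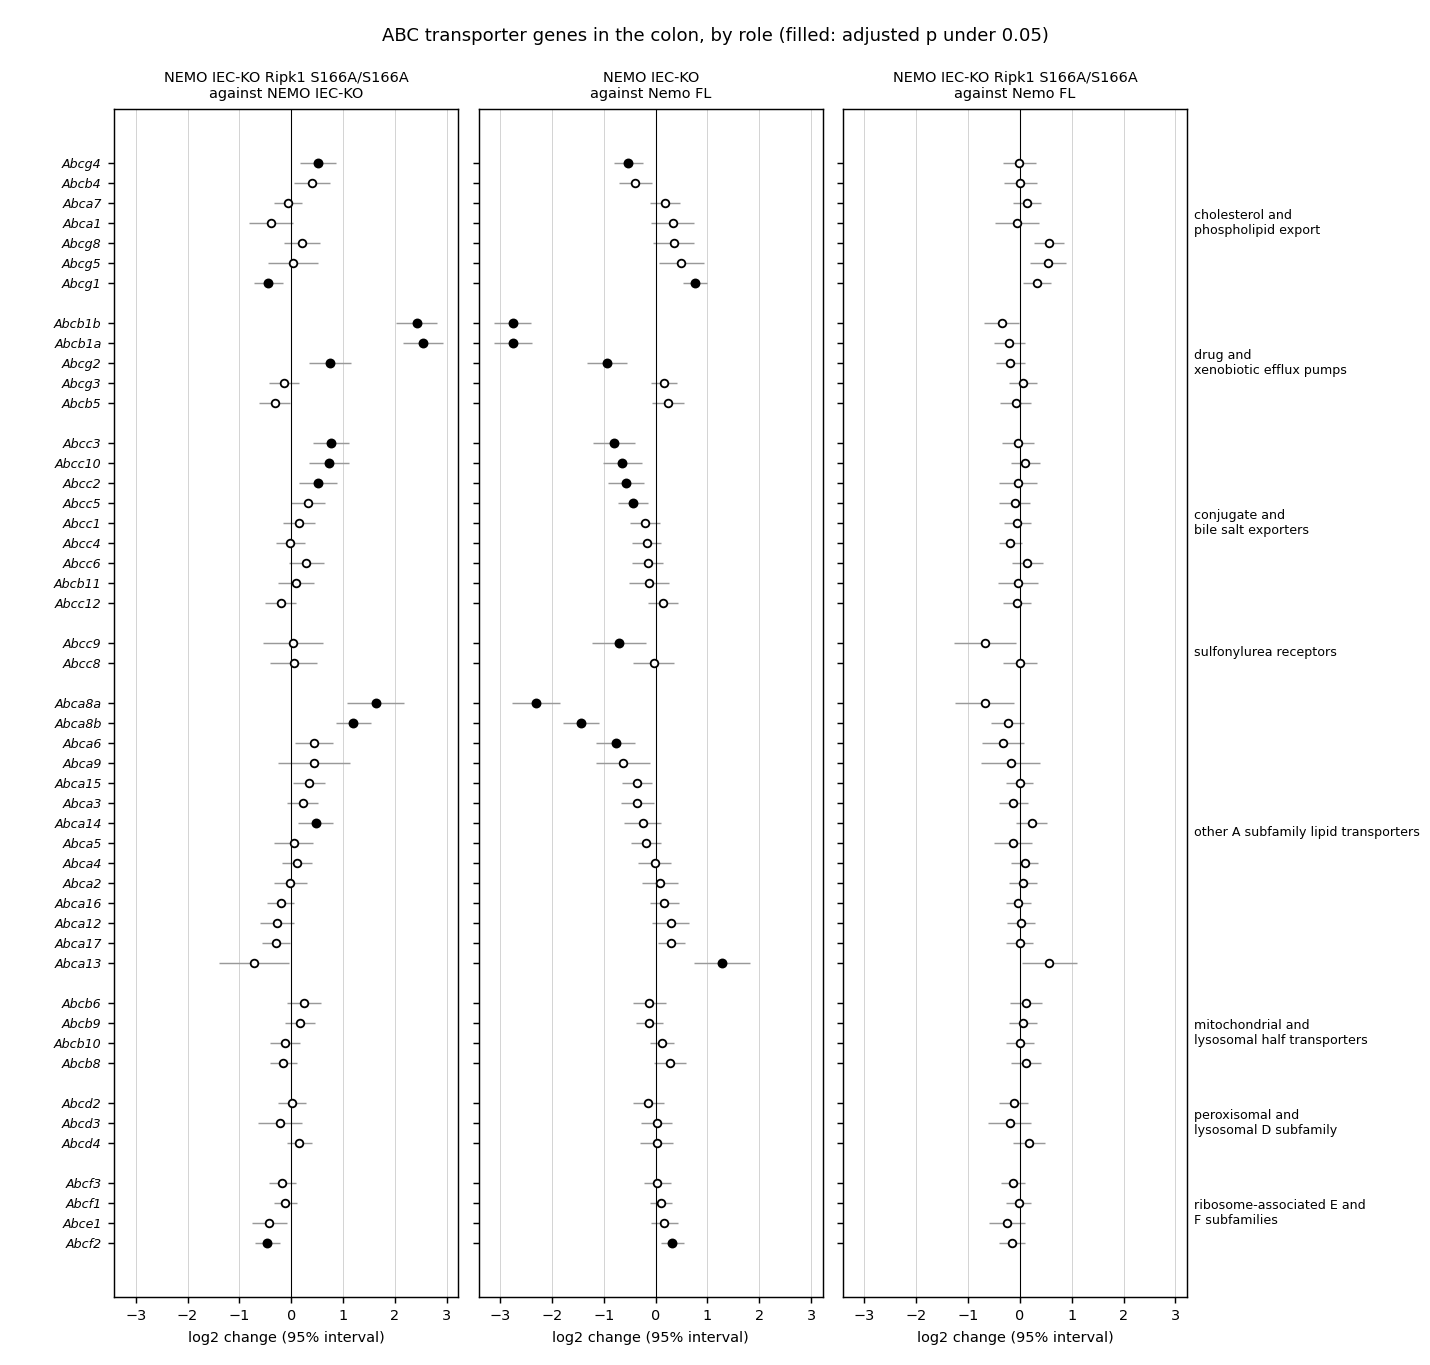
Log2 changes of all 48 ABC members with their 95% intervals (x axis), grouped by role down the page, in 3 panels for the comparisons named above them, with 5 mice in each group. Filled points passed an adjusted p under 0.05, which 12 members did in the left panel, 15 in the middle and 0 in the right, and Abcb1a, Abcb1b, Abca8a and Abca8b lie farthest from 0.

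Abcb1a had 11.47, 10.98, 11.11, 11.23 and 11.62 in S166A mice, 8.65, 9.17, 8.98, 8.70 and 8.19 in NEMO IEC-KO mice, and 11.16, 11.55, 11.43, 11.75 and 11.56 in Nemo FL mice. Every NEMO IEC-KO mouse lay below every other mouse, and the remaining genotypes overlapped. The log2 change was −2.75 in NEMO IEC-KO relative to Nemo FL mice (SE 0.169, adjusted p = 3.55e-08 from limma) and 2.54 in S166A against NEMO IEC-KO mice (SE 0.179, adjusted p = 5.20e-07). Abcb1b had 10.39, 9.82, 10.10, 9.87 and 10.57 in S166A mice, 7.46, 8.27, 7.89, 7.61 and 7.44 in NEMO IEC-KO mice, and 10.17, 10.62, 10.37, 10.73 and 10.59 in Nemo FL mice. Again the NEMO IEC-KO mice stood apart and the others overlapped. The log2 change of Abcb1b was −2.76 in NEMO IEC-KO relative to Nemo FL mice (SE 0.165, adjusted p = 3.11e-08) and 2.42 in S166A relative to NEMO IEC-KO mice (SE 0.185, adjusted p = 9.52e-07). Both genes kept their calls in each fit that left out 1 mouse, with sex as a term, and with mouse 55 placed by its genotype label, where the falls were −2.27 and −2.26. Abcb1a and Abcb1b are closely related copies, so their probes may take up signal from each other, and a change of 1 copy cannot be fully told from that of the other. The log2 difference of S166A from Nemo FL mice was −0.21 for Abcb1a (95% interval −0.51 to 0.09, adjusted p = 0.60) and −0.35 for Abcb1b (95% interval −0.68 to −0.01, adjusted p = 0.461).

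Abcb1a and Abcb1b lie next to each other on chromosome 5, followed by Abcb4, with no other named protein-coding gene between them. RefSeq (GRCm38.p6) held promoter sequence for 38 of the 48 members. The 250 bases before the start sites of Abcb1a (chr5:8566841-8567090, plus strand) and Abcb1b (chr5:8797897-8798146, plus strand) are shown because the copies changed by nearly the same amount. Capitals mark matches on either strand to any of these motifs: the nuclear receptor core site, spelled AGGTCA, the GC box to which factors of the Sp family bind, spelled GGGCGG, the TATA box near which transcription can start, spelled TATAAA, and the binding site of the NF-Y complex, spelled CCAAT.
Abcb1a: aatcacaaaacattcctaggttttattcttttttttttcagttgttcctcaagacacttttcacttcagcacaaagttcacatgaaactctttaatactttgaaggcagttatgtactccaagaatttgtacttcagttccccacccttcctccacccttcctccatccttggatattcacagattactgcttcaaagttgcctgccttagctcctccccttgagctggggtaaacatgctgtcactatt
Abcb1b: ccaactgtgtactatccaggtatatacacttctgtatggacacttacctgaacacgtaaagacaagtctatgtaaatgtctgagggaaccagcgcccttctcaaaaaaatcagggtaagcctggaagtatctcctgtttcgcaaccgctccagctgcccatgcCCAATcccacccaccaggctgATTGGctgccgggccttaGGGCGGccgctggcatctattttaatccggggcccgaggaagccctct
The Abcb1a window held none of these motifs, and that of Abcb1b held 1 GC box and 2 NF-Y sites. At the same place counted from the start site, 28.8% of the bases were identical and the longest run of bases found in both windows was 7. A GC box was present in 32.7% of all 32851 RefSeq promoter windows of this length and in 44.4% of the 45 windows of members, and the NF-Y site in 33.8% and 28.9%. The nuclear receptor core site was present in 14.0% of all windows and in 15.6% of those of members, and the TATA box in 12.4% and 11.1%. No match says only that these letters are not in the window.

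Abcg2, the breast cancer resistance protein of the apical membrane, had 9.22, 9.53, 9.41, 8.98 and 8.93 in S166A mice, 8.37, 8.62, 8.65, 8.92 and 7.76 in NEMO IEC-KO mice, and 9.42, 9.26, 9.28, 9.61 and 9.47 in Nemo FL mice. The NEMO IEC-KO mice were lowest, and their highest value, 8.92 in the fourth mouse, came next to 8.93 in S166A mouse 95. The log2 change was −0.94 in NEMO IEC-KO relative to Nemo FL mice (SE 0.177, adjusted p = 0.00116) and 0.75 in S166A against NEMO IEC-KO mice (SE 0.194, adjusted p = 0.0132). The second call ended with sex as a term (log2 change 0.43, adjusted p = 0.22), and both calls ended once mouse 55 was moved to the NEMO IEC-KO mice (−0.76, adjusted p = 0.0767, and 0.58, adjusted p = 0.145). Set against Abcg2 in each mouse, Abcb1a fell by 1.81 more on the log2 scale in NEMO IEC-KO than in Nemo FL mice, and its excess was 1.79 in S166A against NEMO IEC-KO mice. The groups did not overlap in either difference (p = 0.00794 by a two-sided exact permutation test, which cannot go lower with 252 splits). After adjustment over the 21 tests of 7 gene pairs in 3 comparisons both stood at 0.0556, and 0 pairs passed. That smallest p was reached by 3 tests, and 4 tests at it would have been enough for a pass. Of the 5 efflux pump genes the remaining ones, Abcb5 and Abcg3, were not called, with changes of 0.24 and 0.17 in NEMO IEC-KO relative to Nemo FL mice.

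**Figure D2:**
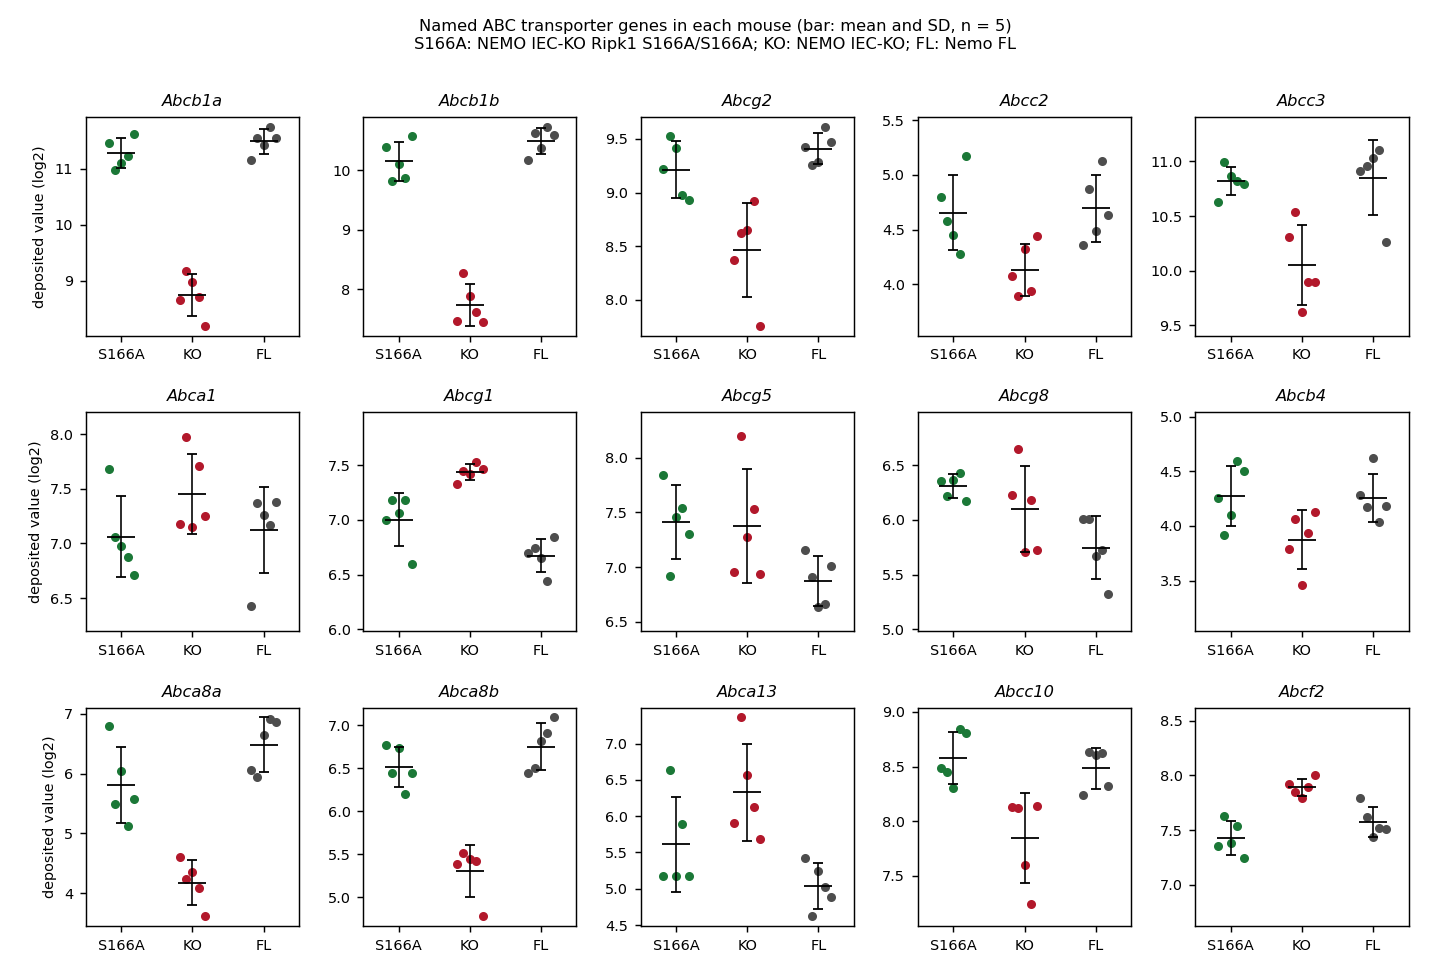
Deposited log2 values (y axis, each panel with its own range) of 15 ABC genes in every mouse, with S166A mice on the left, NEMO IEC-KO mice in the middle and Nemo FL mice on the right. Bars give the mean and SD of 5 mice. The NEMO IEC-KO mice lie below both other genotypes without overlap for Abcb1a, Abcb1b, Abcg2, Abca8a, Abca8b and Abcc10, and above both for Abcg1 and Abcf2.

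Some exporters of conjugates and bile salts were lower. Of the 9 measured, 4 were lower in NEMO IEC-KO than in Nemo FL mice (Abcc3, Abcc10, Abcc2 and Abcc5), 0 were higher, and the median log2 change was −0.20. Of all probe sets 25.4% were called there, and 13.8% of all probe sets were called lower. Compared with NEMO IEC-KO mice, S166A mice had 3 higher (Abcc3, Abcc10 and Abcc2) and 0 lower, with a median of 0.29. In that comparison 9.33% of all probe sets were higher and 9.90% lower. Abcc3, which moves bile acid and drug conjugates across the basolateral membrane, had 10.63, 10.99, 10.87, 10.82 and 10.79 in S166A mice, 10.31, 10.54, 9.62, 9.90 and 9.90 in NEMO IEC-KO mice, and 10.91, 10.96, 11.03, 11.10 and 10.26 in Nemo FL mice. Nemo FL mouse 55 lay among the NEMO IEC-KO mice and apart from its group. The log2 change of Abcc3 was −0.80 in NEMO IEC-KO relative to Nemo FL mice (SE 0.187, adjusted p = 0.00535) and 0.77 in S166A against NEMO IEC-KO mice (SE 0.161, adjusted p = 0.00385). Without mouse 55 the fall in NEMO IEC-KO mice was −0.95 (adjusted p = 0.00125).

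Abcc10, a drug efflux pump for lipophilic anions, had 8.49, 8.45, 8.30, 8.84 and 8.81 in S166A mice, 8.13, 8.12, 7.60, 7.24 and 8.14 in NEMO IEC-KO mice, and 8.24, 8.63, 8.61, 8.62 and 8.32 in Nemo FL mice. NEMO IEC-KO mouse 31 and the fourth mouse, the males of that group, were lowest. The other NEMO IEC-KO mice, all female, lay just under the lowest mice of the remaining genotypes. The log2 change of Abcc10 was −0.64 in NEMO IEC-KO relative to Nemo FL mice (SE 0.174, adjusted p = 0.0141) and 0.73 in S166A against NEMO IEC-KO mice (SE 0.184, adjusted p = 0.0114). Without mice 94 and 95 the second was 0.57 (adjusted p = 0.103). In female mice alone the first was −0.39 (adjusted p = 0.067), and with sex as a term it was −0.53 (adjusted p = 0.009). The second was 1.16 with sex as a term (adjusted p = 8.22e-04). Abcc2, an exporter of conjugates in the apical membrane, had 4.80, 4.58, 4.45, 4.28 and 5.17 in S166A mice, 4.08, 3.89, 4.32, 3.94 and 4.44 in NEMO IEC-KO mice, and 4.36, 4.87, 4.49, 5.13 and 4.63 in Nemo FL mice. These values overlapped between all genotypes and their mean lay below the 25th percentile of all probe sets. The log2 change was −0.57 in NEMO IEC-KO relative to Nemo FL mice (SE 0.157, adjusted p = 0.0154) and 0.52 in S166A against NEMO IEC-KO mice (SE 0.169, adjusted p = 0.0409). The second call ended when S166A mouse 27, 33 or 95 or NEMO IEC-KO mouse 16, mouse 30 or the fourth mouse was left out, where the log2 change went down to 0.39 and the adjusted p up to 0.108. Abcc5, an exporter of cyclic nucleotides, fell by 0.43 on the log2 scale in NEMO IEC-KO relative to Nemo FL mice (adjusted p = 0.0326). That call ended without NEMO IEC-KO mouse 31 or Nemo FL mouse 28 or 55, with adjusted p up to 0.0797.

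The remaining conjugate exporters did not pass in any comparison. Abcc1 and Abcc4, which export glutathione conjugates and prostaglandins among others, changed by −0.20 (95% interval −0.49 to 0.09) and −0.17 (95% interval −0.44 to 0.11) in NEMO IEC-KO relative to Nemo FL mice. Abcb11, the bile salt export pump of hepatocytes, changed by −0.13 (95% interval −0.50 to 0.25). Abcc6 and Abcc12 were at −0.15 and 0.15.

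Genes that handle the substrates of these pumps were counted alongside. Of 26 measured genes of drug and bile acid handling, 11 were lower and 1 higher in NEMO IEC-KO than in Nemo FL mice (46.2% called, against 25.4% of all probe sets), and 11 were higher and 2 lower in S166A than in NEMO IEC-KO mice (50%, against 19.2%). The shares over all probe sets are the same for the lists that follow. Cyp2c55, a cytochrome P450 of the colon, changed by −5.01 in NEMO IEC-KO relative to Nemo FL mice (SE 0.222, adjusted p = 1.21e-09) and by 4.49 in S166A against NEMO IEC-KO mice (SE 0.538, adjusted p = 5.49e-05). Sult1a1, a sulfotransferase, changed by −2.17 and 1.95 in these comparisons. Slc51b, a subunit of the basolateral bile acid exporter, rose by 1.87 on the log2 scale in NEMO IEC-KO relative to Nemo FL mice (adjusted p = 7.65e-05). Among 14 measured regulators of the pumps, 4 were lower and 1 higher in NEMO IEC-KO than in Nemo FL mice (35.7% called), and 4 were higher and 0 lower in S166A than in NEMO IEC-KO mice (28.6%). Vdr, the vitamin D receptor, changed by −1.07 and 1.17, Hnf4a, a factor of the gut epithelium, by −0.65 and 0.73, and Nr1i2, the xenobiotic receptor PXR, by −0.58 and 0.50 in these comparisons (adjusted p between 2.20e-05 and 0.0399).

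Cell type markers moved in the same comparisons. In bulk tissue, fewer cells of a type and less RNA for each cell cannot be told apart. Of 10 measured markers of absorptive colonocytes, 7 were lower and 1 higher in NEMO IEC-KO than in Nemo FL mice, and 8 were higher and 1 lower in S166A than in NEMO IEC-KO mice. Their summed log2 values were 106.95 to 110.35 in S166A mice, 90.27 to 96.52 in NEMO IEC-KO mice and 107.82 to 110.77 in Nemo FL mice. Aqp8, a water channel of surface colonocytes, changed by −3.16 in NEMO IEC-KO relative to Nemo FL mice and by 3.23 in S166A against NEMO IEC-KO mice. Of 10 general epithelial markers 2 had a higher value and 0 a lower one in NEMO IEC-KO than in Nemo FL mice, and their sums overlapped, at 112.0 to 114.2, 112.5 to 113.4 and 111.3 to 113.1 in S166A, NEMO IEC-KO and Nemo FL mice. All 10 smooth muscle markers were lower in NEMO IEC-KO mice, with sums of 103.4 to 110.2, 80.2 to 97.2 and 105.7 to 110.6 in the same order of genotypes. All 10 neutrophil markers were higher in NEMO IEC-KO mice, with sums of 41.9 to 46.2, 59.4 to 89.0 and 40.3 to 43.7. Of 11 macrophage markers 7 were higher and 1 lower, with sums of 72.7 to 80.6, 79.0 to 88.2 and 76.5 to 78.5. Goblet cell markers had 3 higher and 3 lower of 10, with a median log2 change of −0.06 in NEMO IEC-KO relative to Nemo FL mice. Their sums were 100.5 to 105.2, 105.5 to 111.2 and 101.0 to 102.9. Endothelial markers had 1 lower of 10, with overlapping sums of 65.1 to 70.0, 65.2 to 70.0 and 66.6 to 71.3. The part of these cell types in the changes of the ABC genes was not tested.

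**Figure D3:**
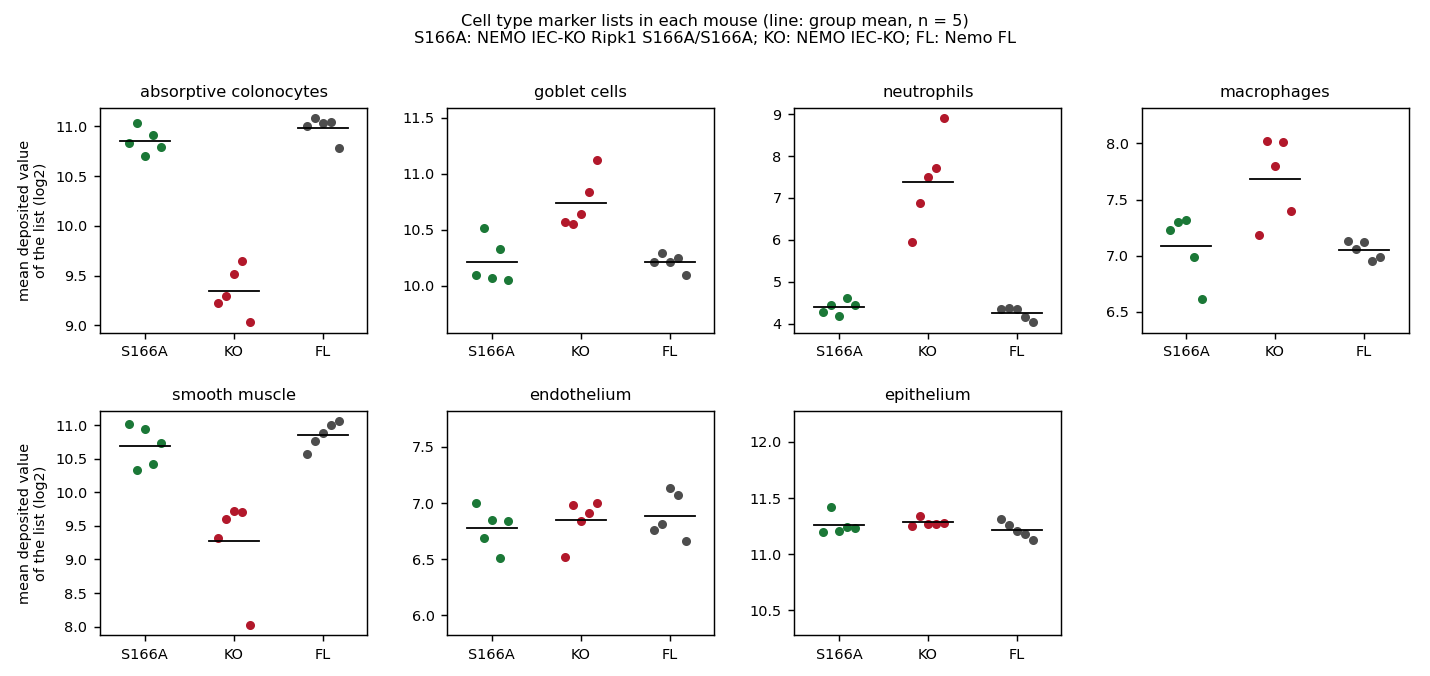
Mean deposited log2 value of 7 marker lists (y axis, each panel with its own range) in every mouse, with S166A mice on the left, NEMO IEC-KO mice in the middle and Nemo FL mice on the right; lines are means of 5 mice. NEMO IEC-KO mice stand below the others for absorptive colonocytes and smooth muscle and above them for neutrophils. The mean of the goblet cell list is also above, but 3 of its 10 markers were higher and 3 lower. Its median log2 change was −0.06 in NEMO IEC-KO relative to Nemo FL mice. The groups overlap for general epithelial and endothelial markers.

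Among transporters of the A subfamily outside the cholesterol exporters, the largest falls lay in a run of neighbouring genes. Of 14 measured, 3 were lower (Abca8a, Abca8b and Abca6) and 1 higher (Abca13) in NEMO IEC-KO than in Nemo FL mice, with a median log2 change of −0.21. Of all probe sets 25.4% were called there, 13.8% lower and 11.6% higher. Compared with NEMO IEC-KO mice, S166A mice had 3 higher (Abca8a, Abca8b and Abca14) and 0 lower, with a median of 0.16. In that comparison 19.2% of all probe sets were called, 9.33% higher and 9.90% lower. Abca8a, a mouse counterpart of the human lipid transporter gene ABCA8, had 6.79, 5.49, 6.04, 5.13 and 5.58 in S166A mice, 4.61, 4.23, 4.35, 4.08 and 3.61 in NEMO IEC-KO mice, and 6.06, 5.94, 6.64, 6.91 and 6.87 in Nemo FL mice. All NEMO IEC-KO mice lay below all others, and S166A mice 33, 94 and 95 lay below every Nemo FL mouse. The log2 change of Abca8a was −2.31 in NEMO IEC-KO relative to Nemo FL mice (SE 0.213, adjusted p = 2.00e-06) and 1.63 in S166A against NEMO IEC-KO mice (SE 0.258, adjusted p = 5.24e-04). Its difference between S166A and Nemo FL mice was −0.68 (95% interval −1.24 to −0.11, adjusted p = 0.422).

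Abca8b, the other counterpart of ABCA8, had 6.77, 6.44, 6.73, 6.20 and 6.45 in S166A mice, 5.39, 5.52, 5.44, 5.42 and 4.78 in NEMO IEC-KO mice, and 6.44, 6.50, 6.82, 6.91 and 7.09 in Nemo FL mice. All NEMO IEC-KO mice lay below all others, the fifth mouse lowest. On the log2 scale Abca8b changed by −1.44 in NEMO IEC-KO relative to Nemo FL mice (SE 0.163, adjusted p = 1.44e-05) and by 1.20 in S166A against NEMO IEC-KO mice (SE 0.160, adjusted p = 1.26e-04). Once mouse 55 was moved to the NEMO IEC-KO mice the calls of Abca8b and, in the second comparison, of Abca8a ended (adjusted p = 0.0662, 0.0803 and 0.134). Within mice, Abca8a fell by 0.87 more than Abca8b on the log2 scale in NEMO IEC-KO relative to Nemo FL mice, and the groups did not overlap (p = 0.00794 by the same exact permutation test, 0.0556 adjusted over the 21 tests). The Abca8a mean in NEMO IEC-KO mice was 4.18, below the 25th percentile of probe set means (4.62). Whether the probes of these related genes differ in response or share signal was not tested.

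Abca8b, Abca8a, Abca9, Abca6 and Abca5 follow each other in this order on chromosome 11, with no other named protein-coding gene between them. In NEMO IEC-KO relative to Nemo FL mice their log2 changes were −1.44, −2.31, −0.62, −0.77 and −0.18. Abca6 fell with an adjusted p of 0.00519, whereas Abca9 had 0.0774 and Abca5 had 0.357. The same genes had in S166A against NEMO IEC-KO mice 1.20, 1.63, 0.44, 0.44 and 0.05, of which those of Abca8b and Abca8a passed. The means of Abca5 and Abca6 lay below the 25th percentile of all probe sets. Promoter sequence is shown for the members of this run with the largest changes, as the 250 bases before the start sites of Abca8a (chr11:110095938-110096187, minus strand) and Abca8b (chr11:109995846-109996095, minus strand), written 5′ to 3′ along the gene with the same motifs in capitals.
Abca8a: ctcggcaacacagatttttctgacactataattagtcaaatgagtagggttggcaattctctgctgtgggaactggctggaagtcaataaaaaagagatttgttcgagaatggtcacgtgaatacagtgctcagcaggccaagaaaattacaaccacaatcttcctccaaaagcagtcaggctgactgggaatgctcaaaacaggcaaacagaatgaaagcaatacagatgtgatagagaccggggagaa
Abca8b: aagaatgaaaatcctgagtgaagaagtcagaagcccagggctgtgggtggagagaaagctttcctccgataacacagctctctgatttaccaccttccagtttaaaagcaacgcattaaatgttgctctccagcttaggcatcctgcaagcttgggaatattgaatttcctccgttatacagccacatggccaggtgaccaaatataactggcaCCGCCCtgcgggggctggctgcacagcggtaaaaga
The Abca8a window held none of the motifs and the Abca8b window held 1 GC box, written on the opposite strand. Their bases were identical at 24.0% of places, and the longest run found in both was 9 bases.

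**Figure D4:**
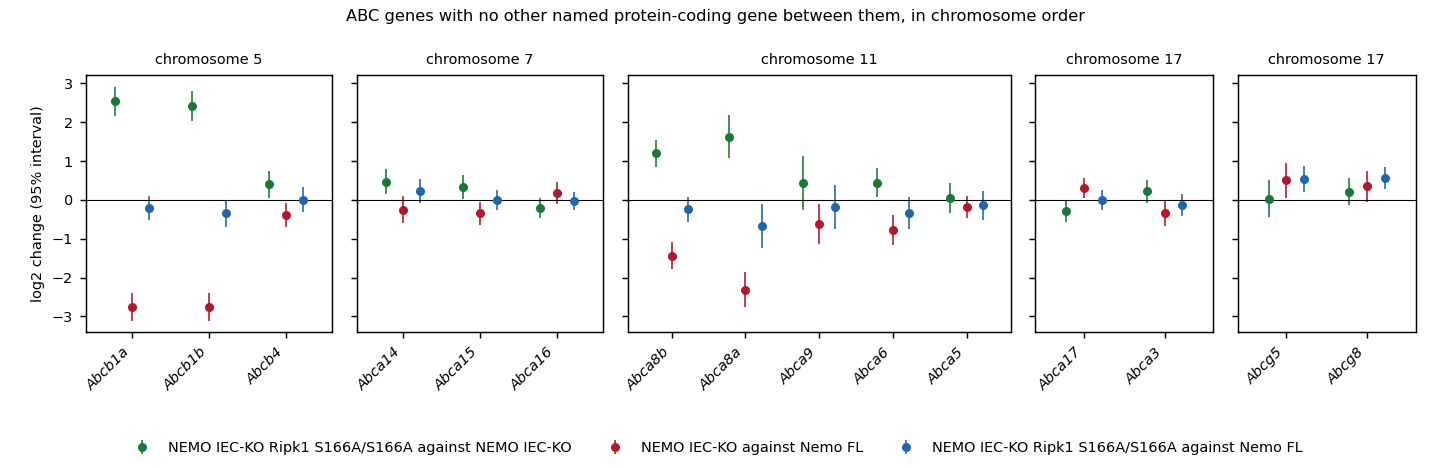
Log2 changes with 95% intervals (y axis) of ABC genes that follow each other on a chromosome without another named protein-coding gene between them, in chromosome order (x axis), for the 3 comparisons (colours), with 5 mice in each group. On chromosome 5 Abcb1a and Abcb1b changed by −2.75 and −2.76 in NEMO IEC-KO relative to Nemo FL mice, beside −0.39 for Abcb4, and on chromosome 11 the changes ran from −2.31 at Abca8a to −0.18 at Abca5.

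Abca13 was the member with the largest rise in NEMO IEC-KO relative to Nemo FL mice. It had 5.17, 6.64, 5.17, 5.89 and 5.18 in S166A mice, 5.91, 7.36, 6.57, 6.12 and 5.68 in NEMO IEC-KO mice, and 5.43, 4.62, 5.24, 5.03 and 4.88 in Nemo FL mice. All NEMO IEC-KO mice lay above all Nemo FL mice, and S166A mice 33 and 94 lay among the NEMO IEC-KO mice. The log2 change was 1.29 in NEMO IEC-KO relative to Nemo FL mice (SE 0.256, adjusted p = 0.00172). In S166A against NEMO IEC-KO mice it was −0.72 (95% interval −1.39 to −0.04, adjusted p = 0.132), and without mouse 33 it was −0.97 (adjusted p = 0.0264). Abca14, on chromosome 7 beside Abca15 and Abca16, was higher by 0.47 in S166A than in NEMO IEC-KO mice (adjusted p = 0.0442). Its call ended in 8 of 10 fits that left out a mouse, those without S166A mouse 27, 56, 94 or 95 or NEMO IEC-KO mouse 16, 30, 31 or the fourth, with adjusted p up to 0.117. Abca15 and Abca16, both below the 25th percentile, had 0.34 and −0.20 in that comparison. Abca3, the transporter of surfactant lipid in the lung, and its neighbour Abca17 on chromosome 17 had −0.35 and 0.30 in NEMO IEC-KO relative to Nemo FL mice (adjusted p = 0.0885 and 0.0992).

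Most cholesterol and phospholipid exporters were not called, 5 of 7 in each comparison with NEMO IEC-KO mice. Of 7 measured, Abcg1 was higher and Abcg4 lower in NEMO IEC-KO than in Nemo FL mice, and Abcg4 was higher and Abcg1 lower in S166A than in NEMO IEC-KO mice. The median log2 changes were 0.33 and 0.03. Over all probe sets 25.4% were called in the first comparison and 19.2% in the second. Abcg1, which hands cholesterol to high-density lipoprotein, had 7.00, 7.18, 7.06, 7.18 and 6.60 in S166A mice, 7.33, 7.45, 7.42, 7.53 and 7.47 in NEMO IEC-KO mice, and 6.70, 6.74, 6.65, 6.44 and 6.84 in Nemo FL mice. The NEMO IEC-KO mice lay close together, between 7.33 and 7.53, and above all others, and of the S166A mice only mouse 95 lay within the range of the Nemo FL mice. The log2 change of Abcg1 was 0.76 in NEMO IEC-KO relative to Nemo FL mice (SE 0.109, adjusted p = 1.18e-04) and −0.44 in S166A against NEMO IEC-KO mice (SE 0.129, adjusted p = 0.0274). The second call ended without S166A mouse 27 or 95 or the fourth NEMO IEC-KO mouse (adjusted p up to 0.0681) and with sex as a term (−0.47, adjusted p = 0.0728). Between S166A and Nemo FL mice Abcg1 differed by 0.33 (95% interval 0.05 to 0.60, adjusted p = 0.421).

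Abcg4, a sterol exporter best known from the brain, changed by −0.53 in NEMO IEC-KO relative to Nemo FL mice (adjusted p = 0.00832) and by 0.52 in S166A relative to NEMO IEC-KO mice (adjusted p = 0.0380). The second call ended without S166A mouse 27, 56 or 95 or NEMO IEC-KO mouse 31, the fourth or the fifth, with adjusted p up to 0.102. Abca1, which loads cholesterol onto apolipoprotein A-I, had 7.68, 7.06, 6.98, 6.88 and 6.71 in S166A mice, 7.18, 7.97, 7.15, 7.71 and 7.25 in NEMO IEC-KO mice, and 6.43, 7.37, 7.26, 7.17 and 7.38 in Nemo FL mice. The genotypes overlapped, with Nemo FL mouse 18 apart at the low end. The log2 change of Abca1 was 0.33 in NEMO IEC-KO relative to Nemo FL mice (95% interval −0.09 to 0.75, adjusted p = 0.249) and −0.39 in S166A against NEMO IEC-KO mice (95% interval −0.81 to 0.03, adjusted p = 0.188). Abcb4, which flips phosphatidylcholine into bile, had 4.26, 3.92, 4.10, 4.59 and 4.50 in S166A mice, 3.79, 4.06, 3.46, 3.94 and 4.13 in NEMO IEC-KO mice, and 4.28, 4.17, 4.62, 4.04 and 4.18 in Nemo FL mice. The genotypes overlapped, and the mean lay below the 25th percentile of all probe sets. The log2 change was −0.39 (95% interval −0.70 to −0.07, adjusted p = 0.0654) and 0.40 (95% interval 0.06 to 0.74, adjusted p = 0.0955) in these comparisons. The first passed without the fifth NEMO IEC-KO mouse (−0.45, adjusted p = 0.0408) and with array quality weights (−0.41, adjusted p = 0.0456). The second passed without S166A mouse 33 (0.49, adjusted p = 0.0497).

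Abcg5 and Abcg8 encode the subunits of the sterol exporter of the apical membrane and lie head to head on chromosome 17, with 110 bases between their nearest RefSeq start sites. Abcg5 had 7.84, 6.92, 7.46, 7.54 and 7.30 in S166A mice, 6.95, 8.20, 7.27, 7.53 and 6.94 in NEMO IEC-KO mice, and 7.16, 6.91, 6.63, 6.66 and 7.01 in Nemo FL mice. NEMO IEC-KO mouse 30 was highest, and the genotypes overlapped. Abcg8 had 6.36, 6.22, 6.37, 6.43 and 6.17 in S166A mice, 6.23, 6.65, 5.71, 6.18 and 5.73 in NEMO IEC-KO mice, and 6.01, 6.01, 5.67, 5.73 and 5.32 in Nemo FL mice. All S166A mice lay above all Nemo FL mice, and mouse 30 was again the highest NEMO IEC-KO mouse. The differences between S166A and Nemo FL mice were 0.54 for Abcg5 (95% interval 0.20 to 0.88, adjusted p = 0.358) and 0.56 for Abcg8 (95% interval 0.27 to 0.85, adjusted p = 0.211). Neither passed without a sex term, with which Abcg8 differed by 0.99 (adjusted p = 0.0483) and passed while Abcg5 did not, and both were among the 7 members at an unadjusted p under 0.05 in that comparison. Their changes in NEMO IEC-KO relative to Nemo FL mice were 0.50 (95% interval 0.06 to 0.94, adjusted p = 0.0877) and 0.35 (95% interval −0.04 to 0.75, adjusted p = 0.177). For Abcg5 this passed without NEMO IEC-KO mouse 16 or the fifth (0.61 each, adjusted p = 0.0473 and 0.0427) and with array quality weights (0.55, adjusted p = 0.0461).

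Among 21 other measured genes of cholesterol efflux and sterol handling, 5 were lower and 1 higher in NEMO IEC-KO than in Nemo FL mice (28.6% called, close to the 25.4% of all probe sets), and 5 were higher and 2 lower in S166A than in NEMO IEC-KO mice (33.3%, against 19.2%). Apoe, an acceptor of exported cholesterol, changed by 1.01 and −0.91 in these comparisons, and Cyp27a1, which makes oxysterols, by −1.27 and 0.94 (adjusted p between 2.72e-04 and 0.00436). Cd36, a lipid scavenger receptor, fell by 1.43 in NEMO IEC-KO mice, and Srebf1, a regulator of lipid synthesis, was 0.79 higher in S166A than in NEMO IEC-KO mice.

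Sulfonylurea receptors are ABC proteins that regulate potassium channels. Abcc9, the receptor of muscle and vessels, had 7.44, 6.22, 7.22, 5.92 and 6.74 in S166A mice, 6.49, 6.66, 6.45, 7.47 and 6.29 in NEMO IEC-KO mice, and 6.97, 6.92, 7.65, 8.14 and 7.24 in Nemo FL mice. The genotypes overlapped, and the fourth NEMO IEC-KO mouse lay above the others of its group. Abcc9 had a log2 change of −0.71 in NEMO IEC-KO relative to Nemo FL mice (SE 0.244, adjusted p = 0.0428), and 0.04 in S166A against NEMO IEC-KO mice (95% interval −0.55 to 0.62). The call ended in 7 of 10 fits without a mouse, those without NEMO IEC-KO mouse 16, 30, 31 or the fifth or Nemo FL mouse 28, 29 or 55 (adjusted p up to 0.117). Without the fourth NEMO IEC-KO mouse it was −0.91 (adjusted p = 0.00723). Between S166A and Nemo FL mice Abcc9 differed by −0.68 (95% interval −1.27 to −0.08, adjusted p = 0.438). Abcc8, the receptor of the pancreatic beta cell, had −0.04 in NEMO IEC-KO relative to Nemo FL mice. Kcnj8, a channel pore that pairs with the product of Abcc9, rose by 0.42 in that comparison (adjusted p = 0.0453), and Kcnj11 had 0.19 (adjusted p = 0.344). The smooth muscle markers given above were lower in NEMO IEC-KO mice, and their part in the values of Abcc9 was not tested.

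Among the 4 measured members of the E and F subfamilies Abcf2 was called. It had 7.35, 7.63, 7.38, 7.54 and 7.24 in S166A mice, 7.92, 7.85, 7.79, 7.89 and 8.00 in NEMO IEC-KO mice, and 7.79, 7.62, 7.44, 7.52 and 7.51 in Nemo FL mice. The NEMO IEC-KO mice were highest, with Nemo FL mouse 18 next to the lowest of them. The log2 change was 0.32 in NEMO IEC-KO relative to Nemo FL mice (SE 0.107, adjusted p = 0.0417) and −0.46 in S166A against NEMO IEC-KO mice (SE 0.116, adjusted p = 0.0113). The first call ended in 8 of 10 fits without a mouse, those without NEMO IEC-KO mouse 16, 30, the fourth or the fifth or Nemo FL mouse 22, 28, 29 or 55 (adjusted p up to 0.106), and the second ended with sex as a term (−0.41, adjusted p = 0.0739). Abce1, which splits ribosomes after translation ends, differed by −0.42 in S166A against NEMO IEC-KO mice (95% interval −0.75 to −0.09, adjusted p = 0.0718). Abcf1 and Abcf3 lay between −0.17 and 0.10 in the same comparisons. Of 16 measured genes of ribosome recycling and translation initiation, 4 had risen and 1 had fallen in NEMO IEC-KO relative to Nemo FL mice (31.2% called, against 25.4% of all probe sets), and 5 were lower and 0 higher in S166A than in NEMO IEC-KO mice (31.2% lower, against 9.90%). Etf1, the factor that ends translation, changed by 0.46 and −0.50 and Eif2b5, an initiation factor subunit, by 0.48 and −0.54 in these comparisons (adjusted p between 0.00857 and 0.0172).

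Of the 7 measured ABC genes of mitochondria, lysosomes and peroxisomes, limma called 0 in any comparison, and 0 had an unadjusted p under 0.05. Of all probe sets limma called 25.4% in NEMO IEC-KO relative to Nemo FL mice, 19.2% in S166A against NEMO IEC-KO mice and 0.0542% in S166A against Nemo FL mice. At an unadjusted p under 0.05 the shares of all probe sets were 36.6%, 31.9% and 10.6% in the same order. Abcb6, Abcb8, Abcb9 and Abcb10 lay between −0.12 and 0.27 in NEMO IEC-KO relative to Nemo FL mice, and Abcd2, Abcd3 and Abcd4 lay between −0.14 and 0.02. Abcb10, a mitochondrial transporter needed for heme synthesis in red cell precursors, had 0.13 (95% interval −0.10 to 0.36), and Abcd3, which carries fatty acids into peroxisomes, had 0.02 (95% interval −0.28 to 0.32). Of 20 measured genes of mitochondrial iron-sulfur and heme synthesis 4 had risen and 1 had fallen in NEMO IEC-KO relative to Nemo FL mice (25%, near the 25.4% of all probe sets), with Tspo, a protein of the outer mitochondrial membrane, at 1.27 (adjusted p = 1.58e-05) and Alas1, the first enzyme of heme synthesis, at 0.58. In S166A against NEMO IEC-KO mice 1 was higher and 4 were lower (25%, against 19.2%), with Tspo at −1.05. Of 23 genes of peroxisomal fatty acid handling, 2 were lower in NEMO IEC-KO than in Nemo FL mice (8.7%, against 25.4%), and 1, Ehhadh of peroxisomal beta-oxidation, was higher in S166A than in NEMO IEC-KO mice, by 0.63 (4.35%, against 19.2%).

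ABC family genes with other symbols do not follow the naming rule and were not counted. Tap1 and Tap2, which load peptides for presentation on MHC class I, rose by 2.48 and 0.73 in NEMO IEC-KO relative to Nemo FL mice (SE 0.244 and 0.135, adjusted p = 3.64e-06 and 0.00107). Tap1 fell by 1.11 in S166A relative to NEMO IEC-KO mice (adjusted p = 0.00160), while Tap2 had −0.21 (adjusted p = 0.287). Their means were 9.34 and 8.60 in S166A mice, 10.46 and 8.81 in NEMO IEC-KO mice, and 7.98 and 8.09 in Nemo FL mice. Cftr, the chloride channel of the epithelium, changed by −0.84 in NEMO IEC-KO relative to Nemo FL mice (SE 0.136, adjusted p = 3.58e-04) and by 0.64 in S166A against NEMO IEC-KO mice (SE 0.147, adjusted p = 0.00705).

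Across members, the calls in S166A against NEMO IEC-KO mice were fewer with sex as a term, 7 of 48, and with mouse 55 moved to the NEMO IEC-KO mice, 3 of 48. In NEMO IEC-KO relative to Nemo FL mice 15 members passed with the sex term and 6 with mouse 55 moved. Of all 22142 probe sets 4258 were called in S166A against NEMO IEC-KO mice. With the sex term 4030 were called there, and with mouse 55 moved 1434. For NEMO IEC-KO relative to Nemo FL mice these counts over all probe sets were 5628, 5695 and 1807. Moving mouse 55 ended 9 calls in NEMO IEC-KO relative to Nemo FL mice, those of Abcg2 and Abca8b given above and those of Abca13, Abcc2, Abcc10, Abcf2, Abcc9, Abca6 and Abcc5 (adjusted p = 0.101, 0.109, 0.0776, 0.244, 0.155, 0.156 and 0.42). It also ended 9 calls between S166A and NEMO IEC-KO mice, those of Abcg2, Abca8a and Abca8b given above and those of Abcc2, Abcc10, Abcg1, Abcf2, Abcg4 and Abca14 (adjusted p = 0.145, 0.0526, 0.181, 0.0607, 0.105 and 0.13). Moving this mouse, or testing females alone, brought the log2 change of Abcc5 to −0.24 or −0.25. Over the neutrophil markers mouse 55 had a mean of 4.03, where NEMO IEC-KO mice had 5.94 to 8.90. Over the absorptive colonocyte markers it had 10.78, where NEMO IEC-KO mice had 9.03 to 9.65. Its Abcb1a value of 11.56 lay above all NEMO IEC-KO mice, whereas its Abcc3 value lay among them.

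Sex as a term ended 6 calls between S166A and NEMO IEC-KO mice, those of Abcg2, Abcg1 and Abcf2 given above and those of Abcc2, Abcg4 and Abca14 (adjusted p = 0.13, 0.0748 and 0.141), and the same 6 ended in male mice alone (adjusted p between 0.0777 and 0.15). As all S166A mice were male, both fits set them against the 2 male NEMO IEC-KO mice, so they are not separate checks. Whether these calls ended through sex or through so few mice cannot be told apart. Median centring ended those of Abcc2, Abcg4 and Abca14 (adjusted p = 0.0546, 0.0516 and 0.0599), as did quantile normalization (0.0597, 0.067 and 0.0545). Without mice 94 and 95 the calls of Abcc2, Abcg1, Abcg4 and Abca14 ended (adjusted p = 0.0774, 0.0783, 0.0746 and 0.188) in addition to that of Abcc10. Within female mice 5 calls between NEMO IEC-KO and the controls ended, those of Abcc2, Abcc10, Abcf2, Abca6 and Abcc5 (adjusted p = 0.0738, 0.067, 0.0997, 0.0854 and 0.216). Abcc9 lost its call in the joint fit of the genotypes, with array quality weights and with trend and robust eBayes (adjusted p = 0.0693, 0.0764 and 0.0529), and Abca14 with the last of these (0.0522). Of the called members 12 of 15 and 8 of 12 stayed called in each of the 10 fits without 1 mouse, in NEMO IEC-KO relative to Nemo FL and in S166A against NEMO IEC-KO mice. In S166A against Nemo FL mice the 48 differences lay between −0.68 and 0.57, and their median size of 0.124 was equal to that of all probe sets. A p-value above the threshold does not show that these genotypes had the same level.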

How the data were processed

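Total RNA of colon tissue was measured on Clariom S mouse arrays in 15 mice, 1 array for each mouse, from 100 ng of RNA. The authors deposited 1 value for each of 22142 probe sets and each mouse. These deposited values, between 1.69 and 13.60, were read as log2 from their range, since the base and the summary method are not given in the sources used here, and every fold rests on that reading. Array medians lay between 6.27 and 6.36. The submitters' notes name Affymetrix Expression Console and Transcriptome Analysis Console.

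Groups were taken from the sample titles. For every comparison a separate model of its 10 mice was fitted to all probe sets (limma version 3.58.1, functions lmFit and eBayes, under R 4.3.3), p-values were adjusted by Benjamini and Hochberg's method across the whole array, and 0.05 was the threshold. No dim probe sets were left out, and 37 of the 48 members had a mean at or above the 25th percentile (4.62). Differences within gene pairs were compared by exact permutation tests over mice (scipy 1.17.1, two-sided). The number of arrays limits the precision. The study's methods give the mice as littermates, and the labels do not tell which mice shared a litter.

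The members and gene lists were chosen with earlier results of these data known. Values were given in full for 10 members chosen by function, and for members among the 8 largest changes of a comparison whose groups did not overlap. From each list the 3 largest called changes in a comparison were open to naming. Other members were named after their values were seen.

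Settings varied 1 at a time were array quality weights, trend and robust eBayes, a joint fit of the genotypes, median centring, quantile normalization, filters at the 25th percentile and the median, probe sets with 1 symbol, other thresholds, mouse 55 placed by its genotype label, a sex term (for S166A against Nemo FL mice added after seeing the data), 1 sex only, leaving out mice 94 and 95, and leaving out each mouse.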

Additional observations from a re-analysis of the deposited data

Results flagged for a closer look

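Among 45 groups of 5 mice tested (15 genes in 3 genotypes), 3 held a mouse far from the others by Dixon's test, where chance alone flags about 1 in 20 groups. Abcc3 was 10.26 in Nemo FL mouse 55, below the next Nemo FL mouse at 10.91. Abca8b was 4.78 in the fifth NEMO IEC-KO mouse, below the next NEMO IEC-KO mouse at 5.39. Abca1 was 6.43 in Nemo FL mouse 18, below the next Nemo FL mouse at 7.17.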

How the results depend on the processing

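In NEMO IEC-KO relative to Nemo FL mice 15 members were called, and the count moved by over 1.5 times with mouse 55 counted as NEMO IEC-KO (6) and without probe sets below the median of the mean (9, of 23 members tested). That filter took out the other called members, and every called member that it kept stayed called. Leaving out 1 mouse gave 12 to 15. In S166A against NEMO IEC-KO mice 12 were called, and the count was 3 with mouse 55 counted as NEMO IEC-KO, 7 with sex as a term, 6 in male mice only and 5 at an adjusted p under 0.01, while leaving out 1 mouse gave 8 to 13. In S166A against Nemo FL mice the count was 0 in the fit reported, 0 when any 1 mouse was left out, 2 at an unadjusted p under 0.05 with a fold of at least 1.5, and 1 with sex as a term, a setting chosen after seeing the data. Moving mouse 55 also leaves 4 Nemo FL mice, and male mice only leaves 2 NEMO IEC-KO mice. Over all probe sets, moving mouse 55 took the calls from 5628 to 1807 in NEMO IEC-KO relative to Nemo FL mice. In S166A against NEMO IEC-KO mice it took them from 4258 to 1434, whereas the sex term gave 4030 and male mice only 4038. In S166A against NEMO IEC-KO mice the sex term likewise sets S166A mice against those 2, as all S166A mice were male. The cause of the other shifts was not tested.

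Signs turned for changes that were not called and lay near 0. Abcg5 in S166A against NEMO IEC-KO mice was 0.03, and −0.07 without mouse 27, −0.08 without the fifth NEMO IEC-KO mouse and −0.07 without mouse 16, and up to 0.24 without another mouse. In S166A against Nemo FL mice Abcc2 was −0.04, and 0.01, 0.05, 0.00 and 0.07 without mouse 56, 94, 22 or 29 and 0.02 with sex as a term. There Abcc3 was −0.03, and 0.02, 0.01 and 0.03 without mouse 27, 28 or 29, −0.18 without mouse 55 and 0.56 with sex as a term. Abca1 was −0.06, and 0.03, 0.00 and 0.01 without mouse 95, 22 or 55, −0.23 without mouse 18, 0.01 with mouse 55 counted as NEMO IEC-KO and 0.12 without mice 94 and 95. Abcb4 was 0.01, and −0.07, −0.04, −0.01, −0.04 and −0.01 without mouse 94, 95, 22, 29 or 55, −0.08 with array quality weights, −0.01 with mouse 55 counted as NEMO IEC-KO, −0.06 after quantile normalization and −0.17 without mice 94 and 95. Abcc10 was 0.10, and −0.07 without mice 94 and 95. No paired analysis was possible because the groups share no mouse numbers.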
